A study of Mus musculus with 8 samples.

Results

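Contacts at 5 acetylated regions differed strongly between 2 mouse strains: the promoter anchors of Plekhm3, Nod1, Scaf4 and Btn2a2, and a region in the body of Immp2l. They were selected on their inner contacts, the counts between sites inside 1 region, which differed between the D2 and B6 parental lines. Those differences are therefore a description and carry no test. The regions hold 6 anchors of the 30044 in the series, and 214 of its 415681 loops touch them. By region, 44 loops touch Plekhm3, 32 Nod1, 52 Scaf4, 42 Btn2a2 and 44 Immp2l. An anchor is a merged run of 5-kb bins, and a loop is a pair of anchors with its count of read pairs. The question was whether the inner contacts alone differ, or also the contacts of a region with anchors outside it (outer).

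The data are H3K27ac HiChIP of mouse embryonic stem cells. HiChIP ligates DNA ends that lie together in the nucleus and enriches those on chromatin with a chosen mark. Acetylation of histone H3 at lysine 27 marks active promoters and enhancers. A change in the mark at an anchor and a change in its folding therefore both alter the count of a loop, and these counts cannot tell the 2 apart. A bulk count also cannot tell fewer contacting cells from fewer contacts per cell.

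The 4 lines were B6 (C57BL/6J), D2 (DBA/2J), B6-13D2, a congenic line with a B6 genome and a D2 interval of chromosome 13, and D2-13B6, the reciprocal line with a D2 genome and a B6 interval. The congenic strains are written B6.D2-(rs30079041-rs51756099)/Bakr and D2.B6-(rs29224292-rs13469455)/Bakr in the sample labels, and the series text ends the D2-13B6 interval at rs51756099 instead. All lines grew with LIF and the inhibitors PD0325901 and CHIR99021. Each line is 1 line with 2 technical replicates, so p-values measure only the spread between libraries of the same line. Below, B6 background means B6 and B6-13D2 (4 libraries), and D2 background means D2 and D2-13B6 (4 libraries).

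Library totals ran from 737955 to 1425304 counts. Chromosome 11 held 13.9% to 14.0% of counts in the D2-13B6 libraries and 10.0% to 10.6% in the others, and no region described here lies on it. All 10 embryonic stem cell markers had an anchor near their start, with a summed level of 3931 to 5337 CPM (counts scaled to library size) per library. Of 5 fibroblast markers, 2 had an anchor, at 45.0 to 78.5 CPM summed, and Thy1, Twist2 and Pdgfrb had none. Of 2 trophoblast markers, Cdx2 had an anchor at 8.12 to 14.4 CPM and Elf5 had none. None of 4 endoderm and 3 neural markers had an anchor.

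Promoters lie just upstream of a gene's first base, where transcription factors and RNA polymerase II assemble, and acetylated promoters often contact enhancers elsewhere on the same chromosome. Nod1 is a cytosolic sensor of bacterial peptidoglycan that signals through Ripk2 to NF-kB. Scaf4 binds the phosphorylated tail of RNA polymerase II and restrains premature transcript ends. Btn2a2 is a butyrophilin, an immunoglobulin-family membrane protein that modulates T cells, and it sits beside the large histone gene cluster. Plekhm3 belongs to a family of pleckstrin-homology proteins whose relatives act in late endosome and lysosome traffic. Immp2l encodes a peptidase subunit of the mitochondrial inner membrane.

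All 4 promoters lie inside their anchors, and all 4 genes are on the minus strand of GRCm38. The sequences run 5′ to 3′ from 250 bases before to 50 bases after the start, from RefSeq on GRCm38.p6. They are shown to mark where in each anchor the promoter lies and how different these promoters are. Capitals mark matches to the CCAAT box (CCAAT) or the GC box (GGGCGG) on either strand, and no 2 matches overlap.
Plekhm3 promoter, chr1:64956775-64957074: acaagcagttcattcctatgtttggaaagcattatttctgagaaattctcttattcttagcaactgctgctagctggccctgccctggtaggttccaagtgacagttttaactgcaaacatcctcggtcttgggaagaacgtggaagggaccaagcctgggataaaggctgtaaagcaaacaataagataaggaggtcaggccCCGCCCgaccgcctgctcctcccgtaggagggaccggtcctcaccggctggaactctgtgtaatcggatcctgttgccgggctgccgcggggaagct
Nod1 promoter, chr6:54972563-54972862: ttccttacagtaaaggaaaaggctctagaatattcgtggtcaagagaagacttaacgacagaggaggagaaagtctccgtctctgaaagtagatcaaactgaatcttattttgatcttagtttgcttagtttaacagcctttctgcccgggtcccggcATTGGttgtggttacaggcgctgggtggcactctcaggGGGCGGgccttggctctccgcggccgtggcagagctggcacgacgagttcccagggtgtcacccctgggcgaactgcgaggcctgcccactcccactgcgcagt
Scaf4 promoter, chr16:90284454-90284753: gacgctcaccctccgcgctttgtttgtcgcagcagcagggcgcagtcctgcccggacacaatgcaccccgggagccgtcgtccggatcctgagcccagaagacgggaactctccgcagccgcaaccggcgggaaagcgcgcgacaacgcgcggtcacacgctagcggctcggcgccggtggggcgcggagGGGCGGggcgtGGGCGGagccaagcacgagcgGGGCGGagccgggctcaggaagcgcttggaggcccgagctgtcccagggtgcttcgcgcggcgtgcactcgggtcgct
Btn2a2 promoter, chr13:23488808-23489107: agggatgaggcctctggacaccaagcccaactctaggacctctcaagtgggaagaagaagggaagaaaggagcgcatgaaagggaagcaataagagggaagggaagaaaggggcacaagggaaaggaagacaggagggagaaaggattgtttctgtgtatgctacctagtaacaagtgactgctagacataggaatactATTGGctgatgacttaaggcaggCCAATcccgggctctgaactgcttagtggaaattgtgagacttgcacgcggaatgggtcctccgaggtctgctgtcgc

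The Scaf4 promoter was the CpG-rich one, with 43 CpG dinucleotides, a GC content of 73% and 3 GC boxes. The Btn2a2 promoter had 6 CpGs, no GC box and 2 CCAAT boxes. Plekhm3 (12 CpGs) and the Nod1 promoter shown (15 CpGs) lay between, each with 1 GC box. A second Nod1 start in the anchor, with its promoter at 54971612 to 54971911, had 6 CpGs, 1 CCAAT box and no GC box. Scaf4 also has a second start, whose promoter overlaps the one shown. Among 32851 promoters of the same length, 37.4% held a CCAAT box and 35.7% a GC box. The other motifs searched on both strands had no match in these 4 promoters. The TATA box, TATAAA, is in 13.6% of all promoters. The ETS motif, CCGGAAG, is in 8.86%. The E-box, CACGTG, is in 7.15%. The cyclic AMP element, TGACGTCA, is in 1.79%. The Immp2l region, on chromosome 12 from 41375001 to 41390000, lies in an intron of that gene, far from its promoter, and holds an exon of the antisense transcript Gm47373 (41386379 to 41387046) and no coding gene start.

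The inner contacts of Plekhm3 and Immp2l were higher in every D2-background library, and those of Nod1, Scaf4 and Btn2a2 were lower in every one. At Plekhm3 (chromosome 1, 64945001 to 64985000), inner counts were 67 and 39 in B6 and 64 and 78 in B6-13D2, against 321 and 307 in D2 and 717 and 707 in D2-13B6. B6 averaged 60.4 ± 12.1 CPM and B6-13D2 61.8 ± 5.88, while D2 averaged 389 ± 15.3 and D2-13B6 516 ± 9.96 (SD over 2 libraries). The libraries of the 2 backgrounds did not overlap.

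At Nod1 (chromosome 6, 54935001 to 54975000), inner counts were 275 and 186 in B6 and 306 and 440 in B6-13D2, against 25 and 33 in D2 and 29 and 44 in D2-13B6. B6 averaged 265 ± 25.5 CPM and B6-13D2 320 ± 6.90, while D2 averaged 36.3 ± 9.57 and D2-13B6 26.4 ± 7.44 (SD over 2 libraries). Every D2-background library was below every B6-background library.

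At Scaf4 (chromosome 16, 90280001 to 90315000), inner counts were 169 and 116 in B6 and 187 and 268 in B6-13D2, against 22 and 21 in D2 and 41 and 37 in D2-13B6. The B6 and B6-13D2 means were 164 ± 14.1 and 195 ± 3.75 CPM, and those of D2 and D2-13B6 26.7 ± 1.01 and 28.3 ± 2.32 CPM (SD over 2 libraries). The order of the backgrounds was that of Nod1.

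At Btn2a2 (chromosome 13, 23485001 to 23520000), inner counts were 140 and 115 in B6 and 222 and 301 in B6-13D2, against 8 and 19 in D2 and 26 and 31 in D2-13B6. The B6 and B6-13D2 means were 148 ± 6.11 and 225 ± 4.51 CPM, and those of D2 and D2-13B6 17.1 ± 10.8 and 20.7 ± 2.37 CPM (SD over 2 libraries). Btn2a2 is on the chromosome that carries the exchanged interval, and each congenic line lay with the parent of its background. The positions of the interval's markers were not used here.

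The Immp2l inner contact is a single pair of bins 10 kb apart, 41375001 to 41380000 with 41385001 to 41390000. These bins are 2 separate anchors, so it is a loop between anchors, whereas the inner contacts of the 4 promoter regions lie within 1 anchor each. The Immp2l pair had 6 and 8 counts in B6 and 11 and 4 in B6-13D2, against 150 and 171 in D2 and 220 and 179 in D2-13B6. The B6 and B6-13D2 means were 8.40 ± 3.15 and 7.14 ± 5.92 CPM, and those of D2 and D2-13B6 200 ± 32.6 and 145 ± 22.4 CPM (SD over 2 libraries). The bin between them is wholly soft-masked, that is marked as repeat in the reference, and it carries no listed contact. Of 529094 genome windows of that size, 2.03% are wholly masked.

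**Figure D1:**
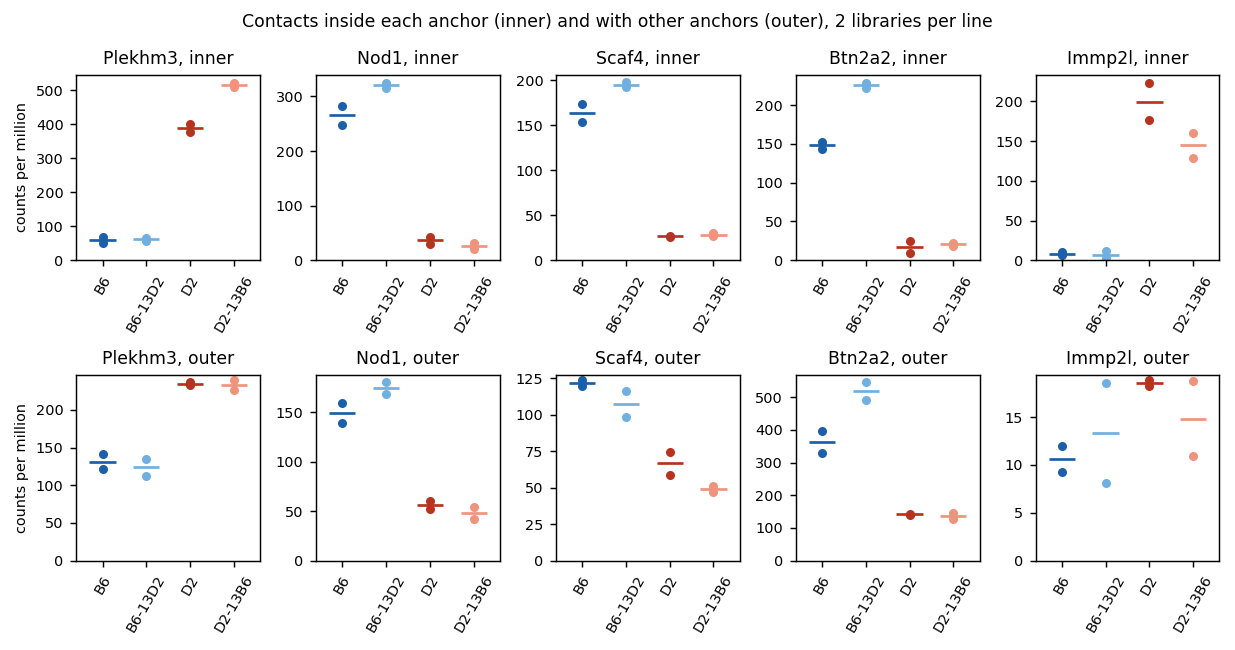
Inner (top) and outer (bottom) contacts of the 5 regions in CPM, each axis starting at 0. Points are the 2 libraries of a line and bars their means. The backgrounds separate in every panel except outer contacts of Immp2l, where the D2-13B6 and B6-13D2 libraries overlap.

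The congenic lines share no library with the parental comparison that chose the regions, so D2-13B6 minus B6-13D2 was tested, with edgeR's quasi-likelihood test and the false discovery rate (FDR) taken over all features. The direction of the inner contacts there was already known from earlier work on these data and is no independent support. Inner contacts rose 8.41-fold at Plekhm3 (log2 fold change 3.07, SE 0.15, FDR 1.08e-89) and 22.0-fold at Immp2l (4.46, SE 0.27, FDR 1.71e-58). They fell at Nod1 by 12.1-fold (log2 fold change -3.59, SE 0.18, FDR 8.62e-89), at Scaf4 by 6.89-fold (-2.78, SE 0.18, FDR 4.88e-48) and at Btn2a2 by 10.8-fold (-3.44, SE 0.19, FDR 7.91e-68). All 5 were past an FDR of 0.05, as were 8.54% of the 44706 tested loops (4.07% higher, 4.47% lower). Regions picked for a background difference were bound to exceed that share, so it is no measure of enrichment. In D2 against B6, as a description, the same log2 differences were 2.67, 4.60, -2.88, -2.62 and -3.14 in the same order of genes.

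The outer contacts also differed at the 4 promoter anchors, each in the direction of its inner contacts. At Plekhm3, B6 had 118 and 106 outer counts and B6-13D2 131 and 152, while D2 had 197 and 182 and D2-13B6 329 and 314. In CPM the B6 libraries averaged 131 ± 13.7 and those of D2 235 ± 3.49 (SD over 2 libraries), B6-13D2 was at 135 and 112 and D2-13B6 at 240 and 226, so the backgrounds did not overlap. The sum rose 1.91-fold in D2-13B6 over B6-13D2 (log2 fold change 0.93, SE 0.13, edgeR FDR 4.03e-09).

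At Nod1, B6 had 135 and 120 outer counts and B6-13D2 164 and 245, while D2 had 51 and 40 and D2-13B6 74 and 59. In the same order of lines the means were 149 ± 14.4, 175 ± 8.49, 56.2 ± 5.66 and 48.2 ± 8.14 CPM (SD over 2 libraries), and D2-background libraries were all lower. The sum fell 3.63-fold between the congenic lines (log2 fold change -1.86, SE 0.16, edgeR FDR 1.56e-17).

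At Scaf4, B6 had 116 and 93 outer counts and B6-13D2 113 and 133, while D2 had 50 and 57 and D2-13B6 70 and 65. The means were 121 ± 2.91, 107 ± 12.9, 66.6 ± 10.9 and 49.0 ± 3.02 CPM (SD over 2 libraries), again without overlap. The sum fell 2.17-fold (log2 fold change -1.12, SE 0.17, edgeR FDR 1.81e-07).

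At Btn2a2, B6 had 320 and 298 outer counts and B6-13D2 532 and 664, while D2 had 119 and 109 and D2-13B6 176 and 202. The means were 363 ± 47.0, 519 ± 40.7, 141 ± 1.25 and 137 ± 12.0 CPM (SD over 2 libraries), lower in every D2-background library. The sum fell 3.77-fold (log2 fold change -1.92, SE 0.11, edgeR FDR 1.54e-27). Thus 4 of the 5 outer sums were past the threshold, against 23.6% of the 21173 anchors tested (11.7% higher, 11.9% lower).

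At Immp2l, which had the fewest outer counts, no outer change passed. B6 had 9 and 9 outer counts and B6-13D2 18 and 11, while D2 had 16 and 14 and D2-13B6 15 and 26, and the congenic libraries overlapped. The log2 difference of 0.24 (SE 0.38, 95% interval -0.51 to 0.99, edgeR FDR 0.712) did not pass the test. The interval includes the Plekhm3 value of 0.93, so these counts do not set Immp2l apart from it. In D2 against B6, as a description, the log2 difference was 0.82 (SE 0.45). The sign of the congenic value turned to -0.30 without the second B6-13D2 library and to -0.17 without the second D2-13B6 library.

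The outer change was smaller than the inner change at all 5 regions. Regions chosen for large inner differences are bound to favour that order, so the difference is a description and no test of it is given. Outer minus inner, in log2 units between the congenic lines, came to -2.14 at Plekhm3 (SE 0.17) and -4.21 at Immp2l (SE 0.52). At the regions that fell it was 1.73 at Nod1 (SE 0.23), 1.67 at Scaf4 (SE 0.24) and 1.53 at Btn2a2 (SE 0.21).

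As a share of all contacts of its region, the inner part of Plekhm3 was 26.9% to 36.2% in the B6-background libraries and 62.0% to 69.2% in the D2-background ones. For Immp2l it was 26.7% to 47.1% against 87.3% to 93.6%. For Nod1 it ran the other way, 60.8% to 67.1% against 28.2% to 45.2%. Scaf4 had 55.5% to 66.8% against 26.9% to 36.9%, and Btn2a2 27.8% to 31.2% against 6.30% to 14.8%. The widest exact binomial 95% interval was that of the first B6 library at Immp2l, 16.3% to 67.7% from 6 of 15 counts, and such intervals cover counting error only.

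Most other anchors with strong inner differences also had smaller outer changes. Among 90 other anchors whose inner contacts differed at least 4-fold between D2 and B6 (a log2 difference of 2), 67 kept the sign between the congenic lines and had a tested outer sum. The outer change, divided by the inner change on the log2 scale, had a median of 0.457 there (quartiles 0.0887 and 0.769). The outer change had the sign of the inner change in 54 of the 67 and the opposite sign in 13, and it was smaller in size in 51. The same ratio was 0.303 at Plekhm3, 0.518 at Nod1, 0.401 at Scaf4, 0.557 at Btn2a2 and 0.0538 at Immp2l. The 67 anchors held a median of 61 inner and 344 outer counts, against 749 to 2300 inner counts in the 5 regions. They too were picked for large inner differences, which favours a smaller outer change, so they set no norm for the regions.

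At the promoter anchors, outer sums between the congenic lines passed in the distance bands with enough counts. Scaf4 had too few under 50 kb, and that band of Nod1 is 1 loop, the contact with Ggct described among the partners. At gaps under 50 kb, the outer sum rose at Plekhm3 (log2 fold change 1.15, SE 0.19, edgeR FDR 1.70e-07) and fell at Btn2a2 (-1.86, SE 0.13, FDR 8.20e-32), in a band where 25.6% of anchors passed. At 50 to 200 kb, the values were 0.74 at Plekhm3 (SE 0.20, edgeR FDR 0.00708), -1.61 at Nod1 (SE 0.18, FDR 1.24e-12), -0.80 at Scaf4 (SE 0.21, FDR 0.00418) and -1.95 at Btn2a2 (SE 0.31, FDR 5.49e-07), against 12% of anchors. At 200 kb and more they were 0.85 (SE 0.20, edgeR FDR 0.000781), -2.44 (SE 0.36, FDR 3.91e-09), -1.59 (SE 0.28, FDR 2.86e-06) and -2.10 (SE 0.21, FDR 2.66e-19) at Plekhm3, Nod1, Scaf4 and Btn2a2, against 7.99%.

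The middle band rested on single libraries at Plekhm3 and Scaf4. Without the first B6-13D2 library the Plekhm3 value was 0.55 (edgeR adjusted p 0.149) and that of Scaf4 -0.60 (adjusted p 0.136), and without the second D2-13B6 library they were 0.71 (adjusted p 0.0735) and -0.71 (adjusted p 0.0898). The far band of Plekhm3 was 0.47 without the second B6-13D2 library (edgeR adjusted p 0.324) and 0.77 without the first D2-13B6 library (adjusted p 0.0573). The values given for Nod1 and Btn2a2 passed with any library left out.

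Single partner loops held few counts. Of 209 loops from these regions to other anchors, 37 had the 5 counts in 2 libraries needed for a test. A loop that reached 5 counts only in the background where it is high had to lie on that side, so signs and medians over the tested loops are not given. Of all 44706 tested loops, 8.54% were called (4.07% higher, 4.47% lower). At Plekhm3, 14 loops were tested and 5 called higher, all 5 among the 9 that reached 5 counts in 2 libraries of each background. At Nod1, 7 were tested, 3 of them reaching 5 counts only in the B6 background, and 4 were called lower, all among the 4 that reached it in 2 libraries of each. At Scaf4, 6 were tested, 2 of them reaching 5 counts only in the B6 background, and 2 were called, 1 of these among the 2 that reached it in both. At Btn2a2, 10 were tested, 4 of them reaching 5 counts only in the B6 background, and 7 were called, 5 of these among the 5 that reached it in both. None of the 43 loops from Immp2l to anchors outside the region could be tested, the largest holding 15 counts over 8 libraries. It joined 1 of the region's 2 anchors to an anchor without a gene, 40980001 to 41000000, which also had 9 counts with the other. Between these, 10 counts were with the body of Immp2l.

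The called Plekhm3 partners lay within 200 kb. The nearest on the left, 64930001 to 64935000 in the body of Plekhm3, had 20 and 22 counts in B6-13D2 and 43 and 62 in D2-13B6 (log2 fold change 1.07, SE 0.28, edgeR FDR 0.00282). The nearest on the right, at the pseudogene Rpl10a-ps1 5 kb away, went from 11 and 18 counts to 48 and 32 (1.21, SE 0.32, edgeR FDR 0.00328). Another anchor in the body of Plekhm3 went from 9 and 10 to 36 and 20 (1.30, SE 0.38, edgeR FDR 0.0106). Cryge, a lens crystallin gene, went from 13 and 18 counts to 30 and 46 (1.04, SE 0.32, edgeR FDR 0.0164). Fzd5, a Wnt receptor gene 200 kb away, went from 21 and 14 to 43 and 34 (0.88, SE 0.30, edgeR FDR 0.0471). Over all 8 libraries, the contact with Rpl10a-ps1 was higher in every D2-background library, and the levels of the other 4 overlapped between the backgrounds. The number called fell from 5 to 1 without the second B6-13D2 library, to 3 without the first, and to 2 without either D2-13B6 library, and DESeq2 called 0.

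At Nod1, the contact with the body of Znrf2, a ubiquitin ligase gene, had 44 and 69 counts in B6-13D2 and 24 and 21 in D2-13B6 (log2 fold change -1.57, SE 0.26, edgeR FDR 3.28e-07). The contact with Ggct, which encodes a glutathione-cycle enzyme, went from 36 and 51 counts to 14 and 8 (-2.21, SE 0.33, edgeR FDR 1.76e-09). That with Gars, the glycyl-tRNA synthetase gene, went from 15 and 28 to 4 and 6 (-2.31, SE 0.45, edgeR FDR 1.96e-05), but over all 8 libraries its levels overlapped between the backgrounds, with 8 and 3 counts in B6 and 6 and 0 in D2. The contact with the start of Znrf2 went from 28 and 31 to 20 and 12 (-1.12, SE 0.33, FDR 0.0111). In place of 4, 3 were called without the first B6-13D2 or the second D2-13B6 library, and 2 with DESeq2 or with 1 count in 2 libraries as the filter.

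At Scaf4, partners differed from each other. The contact with Sod1, the cytosolic superoxide dismutase gene, had 23 and 19 counts in B6, 24 and 29 in B6-13D2, 5 and 4 in D2, and 7 and 8 in D2-13B6 (congenic log2 fold change -2.05, SE 0.39, edgeR FDR 1.48e-05). The contact with the kinase gene Hunk had the most counts of all Scaf4 partners, with 26 and 13 for B6, 25 and 25 for B6-13D2, 21 and 17 for D2, and 24 and 26 for D2-13B6. It did not pass (log2 fold change -0.25, SE 0.31, edgeR FDR 0.729), and the 2 backgrounds overlapped. All contacts of the Hunk anchor apart from those with Scaf4 rose between the same lines (log2 fold change 1.10, SE 0.12, edgeR FDR 1.94e-11). The third by counts, at Synj1 and Paxbp1, had 9 and 8 counts in B6-13D2 and 5 and 3 in D2-13B6 and did not pass (-1.30, SE 0.62, edgeR FDR 0.201). The far partner at Gart and Son, 1300 kb away, had 2 and 9 counts in B6-13D2 and 1 and 0 in D2-13B6 after 5 and 6 in B6 and 3 and 2 in D2. It is the second called loop, but it reached 5 counts only in the B6 background, so its test is not given. The number called at Scaf4 was 1 in place of 2 without the second B6-13D2 library or either D2-13B6 library, with DESeq2, with a looser or a stricter filter, with a replicate block and with the congenic libraries alone.

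Btn2a2 had the most outer counts of the 5 regions. The contact with Abt1, a basal transcription activator gene 30 kb away, had 263 and 352 counts in B6-13D2 against 83 and 104 in D2-13B6 (log2 fold change -1.97, SE 0.15, edgeR FDR 6.16e-35). The contact with the histone anchor from Hist1h4h to Hist1h4d, 10 kb away, went from 116 and 154 counts to 49 and 53 (-1.65, SE 0.19, edgeR FDR 1.28e-15). The contact with Zfp184, a zinc finger gene 1535 kb away, went from 35 and 44 to 9 and 10 (-2.28, SE 0.34, edgeR FDR 4.39e-09). Contacts with 2 further histone anchors fell, at Hist1h2ah (-2.01, SE 0.52, edgeR FDR 0.00321) and at Hist1h1c (-1.81, SE 0.45, FDR 0.00194). The Hist1h1c contact overlapped between the backgrounds over all 8 libraries, with 2 and 9 counts in B6, 19 and 17 in B6-13D2, 2 and 0 in D2, and 5 and 7 in D2-13B6. The other 2 called loops reached 5 counts only in the B6 background, so their tests are not given. That with the non-coding Gm11333 had 13 and 11 counts in B6-13D2 and 4 and 4 in D2-13B6, and the seventh by FDR had 6 and 5 and then 0 in both. Without the first B6-13D2 or the first D2-13B6 library 3 loops were called in place of 7, as with DESeq2.

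**Figure D2:**
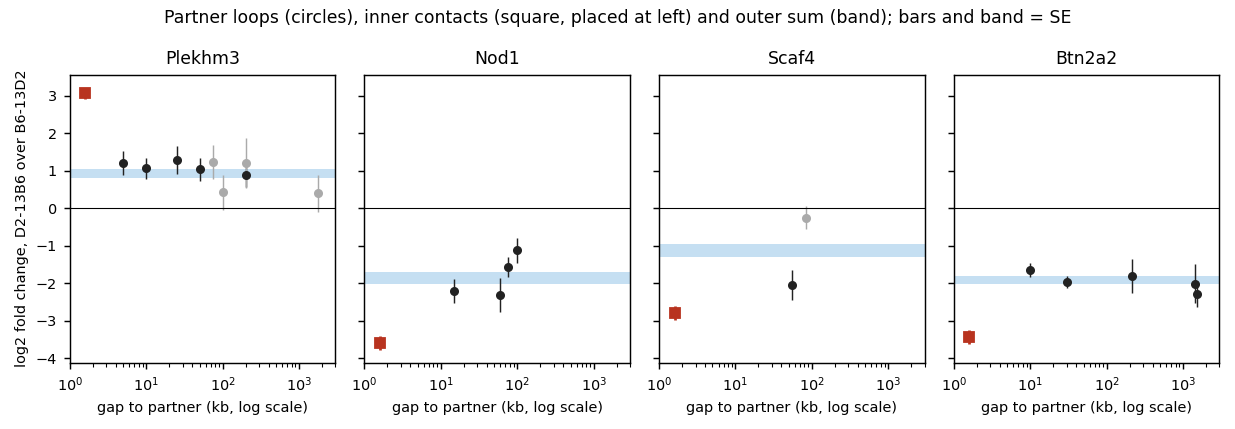
Log2 fold change of single partner loops between the congenic lines (D2-13B6 over B6-13D2) against the gap to the partner in kb on a log axis. Circles are the tested loops that reached 5 counts in 2 libraries of each background, dark where FDR is below 0.05, the square is the inner contact, the band the outer sum, and bars and band are SE. Dark circles number 5 of 9 at Plekhm3, 4 of 4 at Nod1, 1 of 2 at Scaf4 and 5 of 5 at Btn2a2.

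Partner anchors were also compared by themselves. Counting all contacts of each partner, inside it and with other anchors, and leaving out those with the 5 regions, 158 partner anchors could be tested, and 16 of them rose and 16 fell in D2-13B6, where 24.6% of all tested anchors were called (12% higher, 12.6% lower). Of 24 partners of Nod1, 0 rose and 8 fell, and of 32 partners of Btn2a2, 10 rose and 0 fell. At Plekhm3 3 of 37 rose and 3 fell, at Scaf4 2 of 43 rose and 3 fell, and at Immp2l 1 of 22 rose and 2 fell. The Abt1 anchor's own log2 difference was 0.14 (SE 0.10, edgeR FDR 0.350). The histone anchor next to Btn2a2 was higher, 0.62 (SE 0.10, edgeR FDR 1.36e-06), while its contact with Btn2a2 was lower. Around Btn2a2, 3 of 10 tested anchors within 200 kb were higher and 0 lower. Around Scaf4, 2 of 9 were higher and 0 lower. Around Plekhm3, 0 of 11 were higher and 2 lower, and around Nod1 0 of 5 were higher and 2 lower.

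On each side, the nearest anchor within 200 kb that had enough counts for a test was compared, and Immp2l had none on its left. Right of Scaf4 an anchor with few counts, 90345001 to 90350000, lay closer than the tested one, 90370001 to 90375000. To the left of Nod1, an anchor in the body of Znrf2 fell (log2 fold change -0.63, SE 0.18, edgeR FDR 0.00466), and to the right the Ggct anchor was at 0.06 (SE 0.47, FDR 0.950). The neighbours of Plekhm3 were at 0.86 (SE 0.36, edgeR FDR 0.0710) on the left and 0.14 (SE 0.41, FDR 0.847) on the right. Those of Scaf4 were at -0.44 (SE 0.28, edgeR FDR 0.272) and 0.86 (SE 0.44, FDR 0.152), and the nearest anchor right of Immp2l at -0.64 (SE 0.32, FDR 0.133).

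Splitting the anchors into their 5-kb bins showed where the outer change lay, and these fits were added after the values per bin had been seen. At Btn2a2 the 5 middle bins, 23490001 to 23515000, which lie upstream of the gene, had few contacts in the D2 background. Their contacts with bins outside the anchor numbered 228 and 214 in B6 and 388 and 459 in B6-13D2, against 4 and 10 in D2 and 11 and 12 in D2-13B6. In CPM this was 260 ± 35.0 and 369 ± 42.9 against 8.88 ± 5.88 and 8.34 ± 0.435 (SD, n = 2 each). The bins were picked for these values and reached the 10 counts needed for a test only in the B6 background, so no test is given.

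At the 2 edge bins of Btn2a2 the backgrounds had similar outside counts. The bin that holds the promoter, 23485001 to 23490000, had 31 and 23 outside counts in B6 and 40 and 52 in B6-13D2. In D2 it had 30 and 29, and in D2-13B6 44 and 60. Its congenic log2 difference was -0.07 (SE 0.22, 95% interval -0.51 to 0.37, edgeR FDR 0.871), and its sign turned to 0.13 without the first D2-13B6 library. The other edge bin, 23515001 to 23520000, had -0.28 (SE 0.15, 95% interval -0.57 to 0.01, edgeR FDR 0.197). Of the 40831 bins tested for outside contacts, 18.4% were called.

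Pairs of bins inside the Btn2a2 anchor followed the same map. They add up to the inner count on which the region was picked, so their order partly follows from that choice and carries no test. No share over other anchors was computed. Of the anchor's 15 pairs, 14 were lower in every D2-background library than in any B6-background library. The exception joined the edges across the middle, 30 kb apart: it had 2 and 3 counts in B6 and 2 and 7 in B6-13D2, against 7 and 13 in D2 and 22 and 29 in D2-13B6. In CPM that pair was at 3.02 ± 1.36 and 3.61 ± 2.20 against 12.6 ± 6.15 and 18.5 ± 3.42 (SD, n = 2 each), the only one of the 15 that was higher in the D2 background.

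At Scaf4 the lowest ratio of outside contacts was also in the middle. The centre bin, 90295001 to 90300000, had 29, 18, 17 and 25 outside counts in the B6 background and 1, 5, 2 and 7 in the D2 background, the lowest ratio of the anchor's bins, and being picked for it carries no test. The promoter bin, 90280001 to 90285000, had 18, 12, 13 and 19 counts against 8, 17, 13 and 16, and did not pass (-0.38, SE 0.39, 95% interval -1.15 to 0.38, edgeR FDR 0.550). Its inside counts were 35, 26, 40 and 49 in the B6 background and 9, 7, 7 and 5 in the D2 background.

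At Nod1 all 8 bins were lower in the D2 background, by 4.63 to 8.86-fold over all their contacts, and 19 of 21 inner pairs were lower without overlap. These inner pairs again make up the count on which the region was picked. Outside contacts had their lowest ratio of D2 to B6 background in the bin from 54945001, with 14 and 11 counts in B6 and 28 and 29 in B6-13D2, against 5 and 4 in D2 and 6 and 5 in D2-13B6. The promoter bin from 54970001 had 9 and 11 outside counts in B6 and 20 and 19 in B6-13D2, against 9 and 2 in D2 and 15 and 8 in D2-13B6. Only 1 D2-background library reached 10 counts there, so no test is given.

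At Plekhm3 all 8 bins were higher in the D2 background, by 2.48 to 9.41-fold. The promoter bin from 64955001 rose in outside contacts as well (log2 fold change 1.11, SE 0.25, edgeR FDR 0.000385). The pair of that bin with the bin from 64965001 held 31.3% of all inner counts, 3 and 6 from B6, 8 and 9 from B6-13D2, 113 and 106 from D2, and 245 and 231 from D2-13B6. The bin from 64965001 is itself 70.6% soft-masked, as much as 11.5% of genome windows, and averaged 220 CPM over all its contacts in the D2 background. Between the bins of this pair, the bin 64960001 to 64965000 is 94.4% soft-masked and had few contacts (18.6 CPM in the D2 background). Of genome windows, 5.64% are masked as much as this bin.

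Plekhm3 pairs that span this masked bin differed by whether they include the promoter bin. The 12 spanning pairs summed to 35.7 ± 3.45 CPM in B6 and 34.7 ± 6.27 in B6-13D2, against 301 ± 0.297 in D2 and 401 ± 0.863 in D2-13B6 (SD over 2 libraries), an 8.44-fold mean ratio of D2 to B6 and 11.5-fold between the congenic lines. The 4 of them with the promoter bin had ratios of 11.6 and 16.5, and the other 8 had 4.06 and 5.79. The pair on its left had ratios of 3.15 and 2.67, the 3 pairs on its right 3.43 and 5.61, and the 5 pairs that touch it 6.42 and 7.66, on 3 and 1 counts in B6 and 2 and 4 in B6-13D2. This split was chosen after the values were seen and was not tested. The Immp2l pair likewise spans a masked bin, and its bins' outside counts were 14 and 33 in the B6 background against 26 and 45 in the D2 background, while inside counts were 29 against 720.

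**Figure D3:**
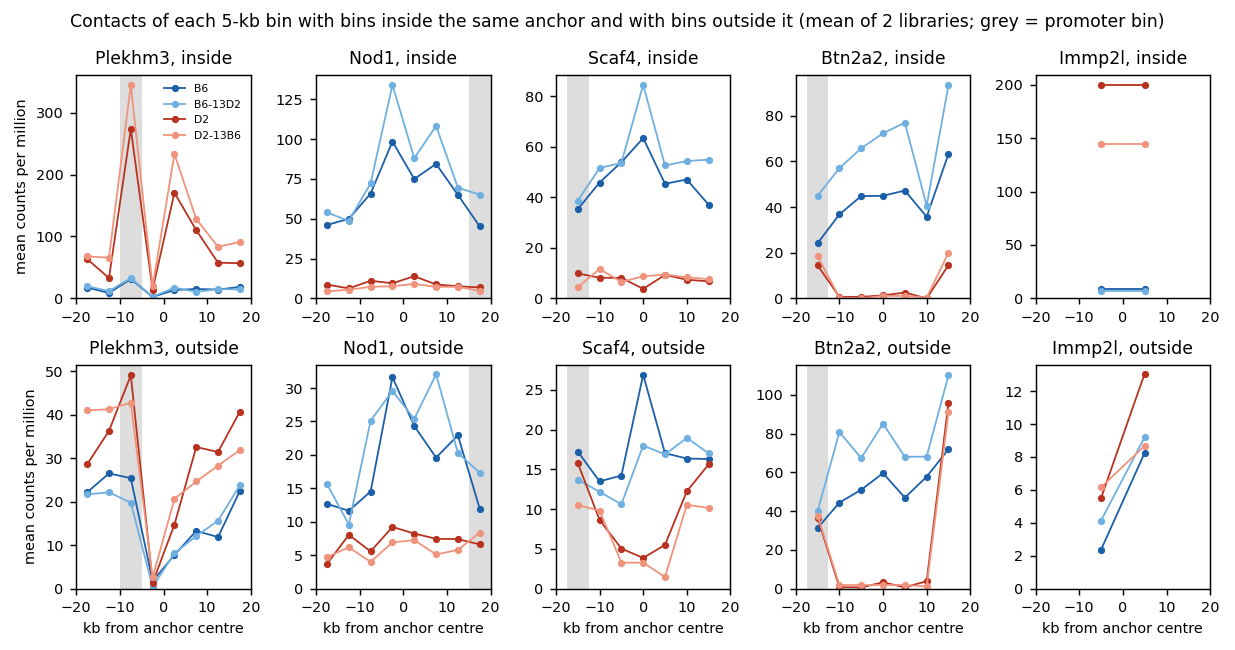
Mean contacts per 5-kb bin in CPM, by line, with bins inside the same region (top) and outside it (bottom), against distance from the region's centre in kb. Grey marks the bin with the promoter. The D2-background lines drop to near 0 across the middle of Btn2a2 and return at both edges.

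**Figure D4:**
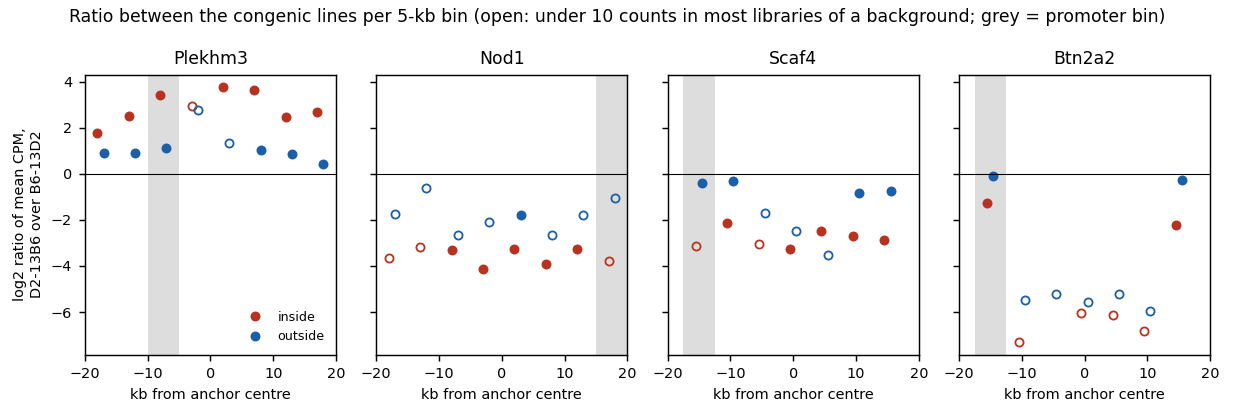
Log2 ratio of mean CPM per 5-kb bin between the congenic lines (D2-13B6 over B6-13D2) against distance from the anchor centre in kb, for contacts inside (red) and outside (blue) the anchor. Filled circles are bins with 10 counts in at least 2 libraries of each background, open circles the others, and grey marks the promoter bin. The 5 middle bins of Btn2a2, all open, lie far below its 2 edge bins, and 1 of them, with 0 inside counts in D2-13B6, has no inside value.

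The submitters' processing notes name mm10, a reference built from the B6 strain, as the only genome build, without its role, and the part that sequence differences of any size between the strains have in these counts was not tested. The GC content of the regions was 40.4% to 47.2%, beside a median of 44.1% over all anchors.

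No inner contact or outer sum passed the test for a change of the background difference with the chromosome 13 interval. The test of whether the background difference with the D2 interval differs from that with the B6 interval had an edgeR FDR of 0.393 to 0.928 for inner contacts and 0.120 to 0.980 for outer sums. The whole outer sum nearest to a difference was that of Btn2a2, at a log2 value of -0.48 (SE 0.17, edgeR FDR 0.120). Within the distance bands, its outer sum under 50 kb came closer to the threshold, at -0.67 (SE 0.21, edgeR FDR 0.0532). Of all loops, 0.602% passed this test, and 2.66% of outer sums.

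The inner profile of each region over the 8 libraries was compared with those of other promoter anchors by Euclidean distance of centred log2(CPM + 1) values. The nearest to Nod1 were Btn2a2 (1.11) and Scaf4 (1.12), beside a median distance of 4.68. The nearest to Scaf4 were Slain2 (1.04) and the anchor of Nnt and Paip1 (1.11), and the nearest to Btn2a2 were Nod1 and Stard3nl (1.18). Plekhm3 lay nearest to Wiz (1.42) and Snapc3 (1.47). Among these promoter anchors Immp2l had no close match, with Plekhm3 at 2.73 and Adam23 at 3.41, beside a median of 6.49. Other anchors without a protein-coding start, as Immp2l is, were not searched. The libraries are shared by all profiles, so these distances are descriptions.

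Genes of the same families and pathways were counted between the congenic lines, over all contacts of their anchors except those with the 5 regions, and the 5 regions themselves are left out of the counts. Of 16 other genes of Nod1 signalling tested, 1 was higher, the kinase-binding gene Tab1 (log2 fold change 0.37), and 2 lower, the ubiquitin ligase gene Xiap (-0.66) and the kinase gene Chuk (-0.66). Of 15 other genes of endosome and lysosome positioning, Vps11 (1.10) was higher and Vps41 (-1.23) and Fyco1 (-0.79) lower. Of 13 other genes for factors of the polymerase tail, Ssu72 (0.34) and Rprd2 (0.35) were higher and 0 lower. Of 11 butyrophilin family genes, only Mog besides Btn2a2 could be tested, and it was not called (0.18, edgeR FDR 0.168). Of 15 mitochondrial protease genes and substrates, Lonp1 (0.62) and Pmpcb (0.72) were higher and 0 lower. These shares lie beside 24.6% called among all anchors.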

How the data were processed

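H3K27ac HiChIP read pairs were counted in 8 libraries, 2 technical replicates of each of 4 lines. The deposited counts are whole read pairs per loop, not normalized, and each library also had a deposited list of counts per pair of 5-kb bins. The submitters' processing notes name BWA 0.7.18, SAMtools 1.19.2, edgeR 3.34.1 and mm10, with no role or order. Here bins started 10 kb to 2 Mb apart.

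Tests used edgeR 4.0.16 in R 4.3.3 (glmQLFit and glmQLFTest) on all 8 libraries with 1 mean per line, TMM factors on library totals, and Benjamini-Hochberg adjustment at 0.05 over all features. Loops needed 5 counts in 2 libraries, anchor and bin sums 10. Outer and inner contacts were compared in a fit with a term per library. SE is the fold change over the root of the F statistic. CPM is the count scaled to total times TMM factor. Genes are from GENCODE M21. DESeq2 1.42.0, other factors and filters, a replicate block, leaving out chromosome 11 and leaving out each library were alternatives. Sample columns without a matching label numbered 0.

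Named partners are those past the threshold (at most 6 per region, by FDR), the 3 with most counts, the nearest tested anchor on each side and the 2 most similar profiles. The regions, gene lists and tests were chosen with earlier results of these data known. On simulated data, 79% of 4-fold and 15% of 2-fold changes were recovered for loops with at least 80 counts, with 7 false calls among 44706 loops, and 92% and 42% for outer sums. The simulation gave all features the same fixed spread, not taken from these libraries, so these rates need not hold for the real counts.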

Additional observations from a re-analysis of the deposited data

How the results depend on the processing

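The inner values and the outer sums of the 4 promoter anchors had the same direction and the same side of the threshold under every alternative that gave them a value, and DESeq2 gave no adjusted p for the Immp2l outer sum. Counts of called partner loops moved most. With 1 count in 2 libraries as the filter, 0 were called higher at Plekhm3, and 2, 1 and 3 lower at Nod1, Scaf4 and Btn2a2, and DESeq2 gave the same counts, 0, 2, 1 and 3. At Scaf4 1 was called with the stricter filter and with the 4 congenic libraries alone. With each library left out in turn, the counts ran from 1 to 5 at Plekhm3, 3 to 4 at Nod1, 1 to 2 at Scaf4 and 3 to 8 at Btn2a2. The outer sum at 50 to 200 kb ran from 0.55 to 1.00 at Plekhm3 and from -1.03 to -0.60 at Scaf4, and that at 200 kb and more from 0.47 to 1.21 at Plekhm3. The Immp2l outer sum ran from -0.30 to 0.84, and its part at 200 kb and more from -0.53 to 0.90. Among bins tested for outside contacts, signs turned at the Btn2a2 promoter bin (range -0.27 to 0.13) and at the Immp2l bin from 41385001 (range -0.81 to 1.502, with -0.47 without the second D2-13B6 library). The cause of these shifts was not tested.

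The replicate numbers did not pair the libraries (correlations of deviations between lines of -0.0452 to 0.00615). With a replicate block the Plekhm3 inner value was 3.07, and called partner loops numbered 4 in place of 5 at Plekhm3 and 1 in place of 2 at Scaf4. No other value listed here crossed its threshold under the block. Depth limits single loops, since 172 of 209 partner loops could not be tested.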
